A study of Mus musculus with 4 samples.

Results

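CD8 3 is the smallest of the 3 main CD8+ T cell clusters that were annotated among CD45+ leukocytes of mouse melanomas. Its members were taken directly from that annotation, as every cell carrying the cluster name CD8 3, and numbered 101 of 4108 cells. Of these, 94 came from control tumors (of 3803 cells) and 7 from glucocorticoid (GC)-treated tumors (of 305 cells). The leukocytes were isolated from 10 tumors of 20967, a single melanoma line with activated Nras (Nras+LSL-G12D;Tyr::CreERT2+/o, C57BL/6 background) that was grown intradermally in wild type C57BL/6 mice, whose own immune system supplied all the T cells. Clobetasol propionate, a potent GC, was applied to 5 of the mice and a control preparation to the other 5. Neither the ages of the mice nor a genetic change in the host was part of the labels used here. Each tumor was marked with its own hashtag antibody before the 5 tumors of a treatment were pooled, and 17100 control cells or 3500 GC cells were loaded into 1 droplet channel. Treatment and channel therefore cannot be told apart.

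Type I interferons (IFN-α and IFN-β) and type II interferon (IFN-γ) bind separate receptors on the cell surface and activate transcription factors through Janus kinases. Type I interferon acts mainly through a complex containing IRF9 that binds the interferon-stimulated response element (ISRE) of target promoters, whereas IFN-γ acts mainly through the gamma-activated site (GAS). The resulting interferon-stimulated genes (ISGs) encode proteins that detect, bind or degrade foreign nucleic acids, modify proteins with ISG15 and present antigen. T cells with raised ISG transcripts are a familiar population in inflamed tissue and in tumors.

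The genes leading the CD8 3 cluster were ISGs, as detailed below, and their promoters are shown because the ISRE is a sequence that can be looked for directly. The ISRE core was searched as GAAANNGAA and the GAS as TTCNNNGAA, on both strands, from 250 bases before to 50 bases after the start of each gene in RefSeq (build GRCm38.p6). Of the 82 ISGs that were higher in CD8 3 than in both CD8 1 and CD8 2, 65 had a promoter in the table and 40 of those held an ISRE core (61.5%). Among all 27025 genes with a promoter the share was 9.76%, and among the 4875 genes of the comparison with a promoter it was 9.54%. The GAS was found in 11 of the 65 (16.9%), against 9.55% of all genes and 8.08% of the genes of the comparison. All 82 came from a list chosen as ISGs, and the share among listed ISGs that were not called was not calculated. These shares therefore describe listed ISGs and do not set CD8 3 apart. The promoters of the first 4 leading genes with a match are printed 5′ to 3′ on the strand of the gene, with bases annotated as untranslated region removed and the ISRE core matches in capitals.

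Ifit1: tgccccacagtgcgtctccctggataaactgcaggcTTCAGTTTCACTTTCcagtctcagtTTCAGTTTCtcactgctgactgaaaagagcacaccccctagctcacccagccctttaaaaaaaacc
Rsad2: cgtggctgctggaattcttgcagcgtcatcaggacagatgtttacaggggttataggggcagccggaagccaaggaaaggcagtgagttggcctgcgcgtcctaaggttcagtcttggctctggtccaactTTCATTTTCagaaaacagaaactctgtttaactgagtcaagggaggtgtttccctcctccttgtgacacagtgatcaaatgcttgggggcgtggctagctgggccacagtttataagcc
Ifit3: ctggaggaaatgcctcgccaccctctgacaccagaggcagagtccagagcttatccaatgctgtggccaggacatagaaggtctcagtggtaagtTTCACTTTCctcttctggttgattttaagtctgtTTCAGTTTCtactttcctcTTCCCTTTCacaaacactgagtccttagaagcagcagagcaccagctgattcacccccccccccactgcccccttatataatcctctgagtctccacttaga
Slfn5: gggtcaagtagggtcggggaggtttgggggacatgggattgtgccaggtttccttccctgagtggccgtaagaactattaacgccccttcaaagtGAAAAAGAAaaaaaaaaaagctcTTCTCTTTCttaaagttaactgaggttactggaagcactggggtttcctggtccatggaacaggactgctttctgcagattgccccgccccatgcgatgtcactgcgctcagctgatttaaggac

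Ifit1 is shown at chr19:34640744-34640870 (plus strand), Rsad2 at chr12:26456453-26456702 (minus strand), Ifit3 at chr19:34583279-34583528 (plus strand) and Slfn5 at chr11:82951852-82952094 (plus strand). Ifit1 held 3 matches, of which the first began 109 bases before the start, and 2 of them overlapped. Ifit3 held 3 separate matches, Slfn5 held 2 and Rsad2 held 1. All but the first match of Slfn5 were on the strand opposite to the gene, and the 4 printed stretches held no GAS. A match is a description of these letters and not evidence that a factor was bound.

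CD8 3 cells carried the transcripts that define CD8+ T cells. In control tumors, Cd8a, the CD8 alpha chain, was detected in 94.7% of CD8 3 cells (95% exact binomial interval 88.0 to 98.3), Cd8b1, the beta chain, in 87.2% and Cd3e, a subunit of the T cell receptor complex, in 94.7%. The share of cells with a Cd8a UMI (unique molecular identifier, a count of 1 captured transcript) was 4.15% in tumor-associated macrophages at a median of 12883 UMIs per cell and 3.50% in regulatory T cells (Tregs) at 6169. CD8 3 cells had a median of 6788 UMIs, between CD8 1 (6342) and CD8 2 (7889). Of the 94 cells, 88 had a Cd8a or Cd8b1 UMI and no Cd4 UMI, 1 had both, 4 had Cd4 alone and 1 had neither. Foxp3, the Treg factor, was detected in 3.19%.

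The level of the CD8 genes was much the same as in the neighboring clusters. Levels are given throughout as the mean over cells of UMIs per 10000 UMIs of the cell, calculated in each tumor, and a log2 difference is the mean over the 5 control tumors of log2(CD8 3 + 0.1) minus log2(comparator + 0.1), with its SD. Cd8a in CD8 3 was 3.50, 4.94, 6.33, 5.78 and 5.61 in control tumors 1 to 5, with means of 5.09 in CD8 1 and 7.03 in CD8 2. The 3 ranges overlapped. The log2 differences were 0.02 ± 0.42 from CD8 1 and −0.43 ± 0.29 from CD8 2 (SD, n = 5). Of the 17 CD8 T cell identity genes, among them the other CD3 subunits, Themis and Thy1, 0 differed 2-fold from either cluster.

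Markers of other cell types were examined as lists. The summed level of 14 macrophage and monocyte markers was 3.20 in CD8 3 (2.38 to 4.32 over tumors), 3.72 in CD8 1 (3.08 to 4.16) and 4.16 in CD8 2 (3.05 to 6.29), and each of the 14 had at least 1 UMI in CD8 3. The 94 cells held 0 UMIs of 2 of 7 neutrophil markers, 4 of 5 eosinophil markers, 4 of 7 B cell markers, 3 of 6 natural killer cell markers, 2 of 6 γδ T cell markers, 6 of 8 dendritic cell markers and 5 of 6 melanoma markers. Some of these sums were higher in CD8 3 on few UMIs. The melanoma list was at 0.307 in CD8 3, 0.056 in CD8 1 and 0.029 in CD8 2, and its 8 UMIs in CD8 3 were all of Mitf, in 3 cells. The γδ T cell list was at 0.161, 0.035 and 0.064 (9 UMIs in CD8 3), and the B cell list at 0.130, 0.065 and 0.126 (3 UMIs). Their part in the results was not tested. A UMI of a defining macrophage, neutrophil or B cell marker was present in 44.7% of CD8 3 cells, 42.7% of CD8 1 cells and 49.8% of CD8 2 cells. The CD4 and Treg list of 7 genes, which includes Ctla4 and Il2ra that activated CD8+ T cells also express, summed to 14.4 in CD8 3, 12.3 in CD8 1 and 31.0 in CD8 2.

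CD8 3 was present in all 5 control tumors, but 1 tumor supplied most of it. The 5 tumors gave 7, 11, 57, 13 and 6 CD8 3 cells, so that tumor 3 held 60.6% of the cluster. As a share of CD8 1, CD8 2 and CD8 3 cells together, CD8 3 was 4.76% in tumor 1 (95% exact binomial interval 1.94 to 9.57), 6.83% in tumor 2 (3.46 to 11.9), 14.8% in tumor 3 (11.4 to 18.8), 12.6% in tumor 4 (6.89 to 20.6) and 7.14% in tumor 5 (2.67 to 14.9). The mean was 9.23% ± 4.26 (SD, n = 5). In the GC-treated tumors the counts were 0 of 7, 2 of 12, 1 of 38, 0 of 9 and 4 of 41 cells, and the 2 counts of 0 allow shares of up to 42.9% and 33.3%. All intervals cover counting error alone. Shares were not compared between treatments, because the genes that define the cluster may themselves differ between treatments.

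The ISGs set CD8 3 apart from CD8 1 and CD8 2 in every control tumor. The clusters were drawn from these same expression values, so the following differences are a description of CD8 3 and carry no test. A gene was called higher or lower where the mean difference was at least 2-fold and had the same sign in all 5 tumors. Of 6074 genes with a mean level of at least 0.2, 158 were higher than in CD8 1 (2.6%) and 199 were higher than in CD8 2 (3.28%), and 147 were higher than in both (2.42%). Of those 147, 82 (55.8%) belonged to the list of ISGs, which had 100 members among the genes compared. Thus 82% of the listed ISGs were higher than in both clusters, beside 2.42% of all genes. The filter mean was taken over all 3 clusters, so a gene could pass through CD8 3 alone. Usp18 did so, at 0.121 in CD8 1, 0.0930 in CD8 2 and 4.77 in CD8 3. Such genes are apt to be called higher, so the 82% is partly set by the filter. Without a filter, 83 listed ISGs were higher than in both. The median log2 difference of the 100 ISGs was 2.13 from CD8 1 and 2.39 from CD8 2, whereas the median of all genes was −0.23 and −0.17.

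The summed ISG level per tumor in CD8 3 was 475, 354, 366, 505 and 428 UMIs per 10000. It was 88.3 to 104 in CD8 1 and 87.6 to 114 in CD8 2, so the lowest CD8 3 value lay well above the highest of either comparator. Tumor 3, which held most of the cells, had the second lowest of the 5 values. Without tumor 3, 84 listed ISGs were higher than in both clusters.

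The IFIT proteins, which bind viral RNA and block its translation, gave the largest median difference of the ISG groups. All 5 IFIT genes compared were higher than in both clusters, with median log2 differences of 3.77 from CD8 1 and 4.07 from CD8 2. Ifit1 was the leading gene of the cluster. It lies at chr19:34640871-34650009 (GRCm38, GENCODE annotation), and its level in CD8 3 was 10.3, 9.37, 6.09, 7.77 and 5.31 in control tumors 1 to 5. In CD8 1 the same tumors had 0.278, 0.200, 0.278, 0.269 and 0.129, and in CD8 2 they had 0.0824, 0.189, 0.157, 0.0628 and 0.0729. No tumor of either comparator reached the lowest CD8 3 value. The log2 difference was 4.56 ± 0.36 from CD8 1 and 5.20 ± 0.50 from CD8 2. Ifit2, Ifit3 and Ifit3b, its neighbors on chromosome 19, had mean levels of 4.62, 3.97 and 2.28 in CD8 3, and none of the 3 exceeded 0.256 on average in a comparator. These genes are related in sequence, so reads may have been assigned between them with error. The same holds for the IFI200, OAS, GBP, Schlafen and TRIM30 families below.

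Of 24 antiviral effectors, 21 were higher than in both clusters, with median log2 differences of 2.11 and 2.16. Rsad2, which encodes viperin, an enzyme making a chain-terminating nucleotide, was at 5.03, 3.30, 4.16, 4.63 and 2.97 in CD8 3. Its levels were 0.0904 to 0.230 over the CD8 1 tumors and 0 to 0.279 over the CD8 2 tumors, without overlap. Isg15, a ubiquitin-like protein that is attached to other proteins, was at 4.59, 4.0, 4.96, 5.93 and 4.27, against means of 0.202 in CD8 1 and 0.310 in CD8 2. The log2 differences of Isg15 were 4.02 ± 0.48 and 3.60 ± 0.31. Samhd1, which degrades deoxynucleotides, was at 22.1, 10.6, 14.0, 25.8 and 20.5 in CD8 3, whereas CD8 1 and CD8 2 had means of 2.34 and 1.64. Rnf213, a large E3 ligase, was at 17.5, 13.5, 9.29, 15.6 and 10.2, with means of 1.18 in both comparators. For these 4 genes every CD8 3 value lay above every value of the other 2 clusters. The exceptions in the list were Ifi27l2a, which was higher than in CD8 1 only (1.79, and 0.44 from CD8 2), Shisa5 (0.88 and 0.77) and Plac8.

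**Figure D1:**
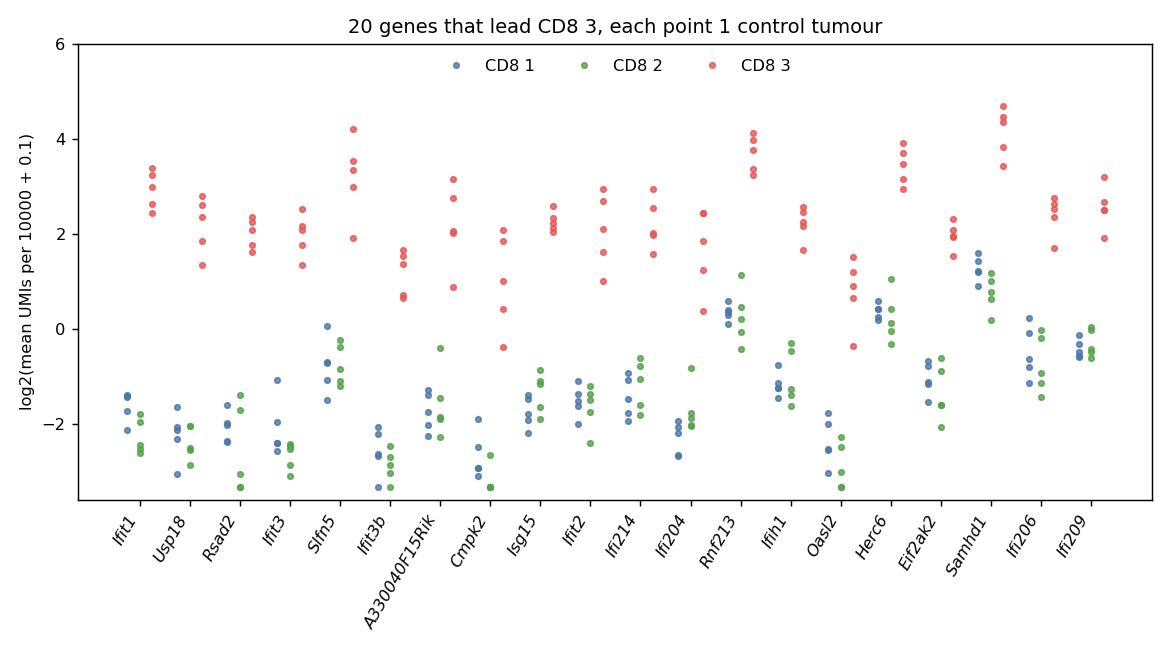
The 20 genes that led CD8 3, by the smaller of their differences from CD8 1 and CD8 2, on the y axis as log2(mean UMIs per 10000 + 0.1), with 1 point per control tumor and cluster. For Ifit1 the CD8 3 tumors ran from 5.31 to 10.3 UMIs per 10000, and the points of both comparators lay below 0.28.

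Sensors of RNA and nucleotide-binding enzymes varied among themselves. The 5 OAS and OASL genes were all higher than in both clusters. OAS enzymes make the 2′-5′ oligoadenylates that activate RNase L. Oas3 was at 3.01, 2.01, 2.61, 3.25 and 3.52 in CD8 3 and had means of 0.319 in CD8 1 and 0.172 in CD8 2. Of 8 RNA and DNA sensors, 4 were higher than in both: Ifih1 (MDA5), Ddx58 (RIG-I), Dhx58 (LGP2) and Ddx60. Ifih1 was at 4.40, 4.67, 3.05, 5.41 and 5.79, and no comparator tumor exceeded 0.715. Nlrc5, a transactivator of MHC class I genes, differed by 0.98 from CD8 1 and 1.28 from CD8 2, and Zc3hav1, which encodes ZAP, by 0.48 and 0.75. Of 10 IFI200 genes, a cluster on chromosome 1 that encodes DNA-binding proteins, 9 were higher than in both, and Ifi214 was at 3.82, 3.94, 2.89, 7.55 and 5.74 in CD8 3 against means of 0.282 and 0.365.

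GTPases, Schlafen proteins and the enzymes of ISG15 and ubiquitin conjugation were raised almost as whole groups. Of 12 guanylate-binding proteins (GBPs) and immunity-related GTPases, which attack pathogen vacuoles, 11 were higher than in both clusters. Gbp2 was at 4.39, 1.44, 2.87, 3.25 and 3.79, and its highest comparator value was 0.768. Of 5 Schlafen genes, 4 were higher than in both, and the fifth, Slfn2, differed by 0.995 from CD8 1, just under the call, and by 1.29 from CD8 2. Slfn5 was at 18.3, 3.68, 7.78, 10.1 and 11.5 in CD8 3. It exceeded every comparator value, of which the highest was 0.936. Of 20 ubiquitin, ISG15 and PARP enzymes, 19 were higher than in both. Usp18, the protease that removes ISG15 and restrains type I interferon receptor signaling, was at 6.83, 3.51, 2.46, 6.03 and 5.03, with means of 0.121 and 0.0930 in CD8 1 and CD8 2. Trim30a was at 12.5, 13.3, 13.8, 20.5 and 10.6, beside means of 2.16 and 2.10.

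Genes of the signaling pathway itself were split. Of 11 signaling genes, 4 were higher than in both clusters, among them Irf7 and Irf9, whose products act on ISRE elements. Irf9 differed by 1.28 from CD8 1 and 1.55 from CD8 2. Irf7, the factor that amplifies type I interferon responses, was at 1.93, 1.79, 2.19, 1.65 and 1.29, and no comparator tumor exceeded 0.464. Socs1, a feedback inhibitor, was higher than in CD8 1 (1.09) but its difference of 1.24 from CD8 2 did not have the same sign in every tumor. Jak1 differed by 0.00 and 0.14 from CD8 1 and CD8 2. Jak2 and Irf8 were lower than in CD8 2 (−1.29 and −2.20), and they were the only 2 listed ISGs called lower than either cluster.

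The receptors were not raised. Of 4 interferon receptor genes compared, 0 were called against either cluster. Ifnar1 and Ifnar2, the type I receptor chains, differed from CD8 1 by −0.41 ± 0.69 and −0.32 ± 0.52, and Ifngr1, a chain of the IFN-γ receptor, by −0.03 ± 0.29. The interferons were examined in all control cells. Ifng had 2032 UMIs, of which 164 came from CD8 3. Ifnk had 1 UMI, and Ifnb1, Ifna2, Ifna4, Ifna5 and Ifne had 0, which shows only that their transcripts were below detection in this sort of CD45+ cells.

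Antigen presentation was raised in part. Of 18 MHC class I and peptide loading genes, 3 were higher than in both clusters: Tap1, a peptide transporter, Tapbp, which encodes tapasin, and H2-T22, a nonclassical class I gene. Tap1 was at 2.79, 2.21, 3.05, 3.51 and 3.30 in CD8 3 and reached at most 1.55 in a comparator tumor. The main class I genes differed little, with log2 differences of 0.12 and −0.03 for H2-K1, 0.12 and 0.14 for H2-D1, and 0.39 and 0.30 for B2m. Of 6 IFITM and Ly6 genes, Ly6c2 alone was higher than in both. It was at 16.2, 7.46, 17.8, 13.2 and 13.2 in CD8 3, overlapping CD8 1 (3.39 to 9.07) but not CD8 2 (1.75 to 5.64). Ly6a, which encodes Sca-1, was higher than in CD8 1 only (1.11), and Ifitm3 higher than in CD8 2 only (1.12). Ifitm1 and Ifitm2 were below CD8 1 on average, at −0.43 ± 0.94 and −0.80 ± 0.65.

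**Figure D2:**
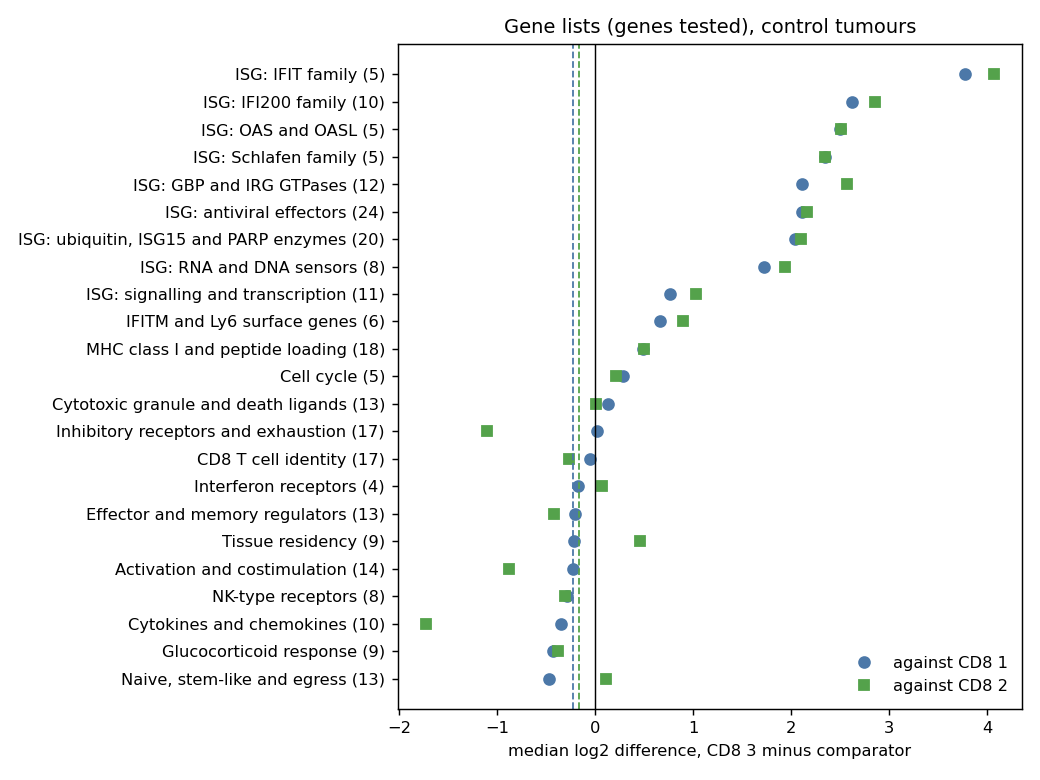
Median log2 difference of CD8 3 from CD8 1 and from CD8 2 for each gene list, with the number of genes compared in parentheses on the y axis and dashed lines at the medians of all genes (−0.23 and −0.17). The IFIT family stood highest at 3.77 and 4.07, and the exhaustion list lay at 0.02 from CD8 1 and −1.11 from CD8 2.

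Outside the list, 65 genes were higher than in both clusters. The one such gene among the 20 leading genes was A330040F15Rik, a processed transcript on chromosome 19, at 8.85, 1.74, 4.07, 3.93 and 6.69 in CD8 3 and with means of 0.208 and 0.275 in the comparators. Others by size included Phf11a (2.58 from the nearer cluster), Pnpt1 (2.28), Daxx (2.23), Parp11 (2.11) and Ifi47 (2.03), an interferon-inducible GTPase that the list had left out. Cd274, which encodes PD-L1, was among them at 2.98 in CD8 3, beside 1.04 in CD8 1 and 1.41 in CD8 2, and so was Casp8 at 3.27, beside 1.50 and 1.29. Of the 61 that had a promoter in the table, 13 held an ISRE core (21.3%), and of 38 genes lower than in both, 1 did (2.63%).

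Few genes of CD8 3 were lower than in both neighbors at an appreciable level. In all, 140 genes were lower than in CD8 1 (2.3%) and 266 lower than in CD8 2 (4.38%), and 49 were lower than in both (0.807%), none of them a listed ISG. Of the 49, 31 had a level under 0.3 in CD8 3 and 36 had no UMI in at least 1 tumor, and with 6 to 57 cells per tumor such values rest on a few UMIs. Kcnq5, a potassium channel gene, was the lowest, at 0, 0.773, 0.321, 1.50 and 0.319 in CD8 3 and with means of 2.08 in CD8 1 and 3.56 in CD8 2. It was also the only gene called lower than both with a pseudocount of 1. Il2ra, the IL-2 receptor alpha chain, was at 0.362, 1.28, 1.79, 1.15 and 0.644, below every tumor of CD8 1 (2.05 to 3.31) and of CD8 2 (2.80 to 4.97). Of the fixed lists, the 49 also held Egr1 and Nfkbia, 2 of 14 activation and costimulation genes, and Nr4a1, 1 of 17 exhaustion genes. Nr4a1 differed by −1.29 ± 1.03 from CD8 1 and −2.10 ± 1.91 from CD8 2, Nfkbia by −1.31 ± 1.17 and −1.64 ± 1.42, and Egr1 by −1.22 ± 1.71 and −1.42 ± 1.44. The tumor values of Nr4a1 and Nfkbia overlapped those of both comparators, and Egr1 overlapped CD8 1 only. Nfkbia was smallest in tumors 1, 4 and 5 (1.66, 1.96 and 0.520).

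By the genes that differed between CD8 1 and CD8 2, CD8 3 lay closer to CD8 1. These genes were picked from the same tumors, so the following is a description. Outside the ISG list, 94 genes were higher in CD8 2 than in CD8 1 (1.55%), and CD8 3 was nearer to CD8 1 for 87 of them (92.6%). Their median log2 difference was −0.12 between CD8 3 and CD8 1 and −1.59 between CD8 3 and CD8 2. For the 59 genes lower in CD8 2 than in CD8 1 (0.971%), CD8 3 was nearer to CD8 1 for 38 (64.4%), at medians of −0.53 from CD8 1 and 0.85 from CD8 2.

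Among 17 inhibitory receptor and exhaustion genes, 9 were lower in CD8 3 than in CD8 2 and 0 were higher. Against CD8 1, Nr4a1 alone was lower. Pdcd1, which encodes PD-1, was at 5.41, 4.90, 4.38, 1.92 and 5.70 in CD8 3, 4.14 to 5.80 in CD8 1 and 7.33 to 10.9 in CD8 2. CD8 3 was therefore below every CD8 2 tumor and within the range of CD8 1, except in tumor 4. Tox, a factor of exhausted T cells, was at 2.71, 6.05, 1.54, 2.48 and 1.58, and its log2 differences were 0.04 ± 0.65 from CD8 1 and −1.35 ± 0.41 from CD8 2. The paper calls CD8+ clusters 2 and 3 richer in exhausted, Tox-high cells, and cluster 1 richer in stem-like cells. Taking these as CD8 1 to CD8 3, mean Tox in control tumors was 2.46, 6.86 and 2.87. Higher Tox was thus seen in CD8 2 and not clearly in control CD8 3 cells. Tnfrsf9 (4-1BB), a costimulatory receptor induced by antigen, was at 0.720, 2.89, 2.10, 2.76 and 0.827 and lay below the 9.74 to 13.9 of CD8 2. Of 14 activation and costimulation genes, 7 were lower than in CD8 2 and Cd40lg was higher (1.43). Of 13 naive and stem-like genes, 2 were lower than in CD8 2, namely Bach2 and Xcl1, and Xcl1 was also lower than in CD8 1.

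Cytokine genes followed the same pattern. Of 10 cytokine and chemokine genes, 7 were lower than in CD8 2, among them Ccl3, Ccl4 and Ifng. Ifng was at 0.824, 2.51, 2.75, 2.30 and 0.394 in CD8 3, and its log2 differences were −0.27 ± 1.02 from CD8 1 and −1.39 ± 0.67 from CD8 2. Ccl5, a chemokine of effector T cells, was higher than in CD8 2 (1.04 ± 0.86).

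Granule genes did not follow these patterns. The summed level of 17 granule and death ligand genes was 52.2 in CD8 3 (36.2 to 65.3 over tumors). It was 37.6 in CD8 1 (31.7 to 42.3) and 49.6 in CD8 2 (43.8 to 60.3), so CD8 3 overlapped both. Gzmb, which encodes granzyme B, was at 3.75, 11.7, 16.1, 20.1 and 16.1 in CD8 3, 2.42 to 5.38 in CD8 1 and 3.89 to 14.1 in CD8 2. It was called higher than CD8 1 (1.52 ± 0.57) and not CD8 2 (0.64 ± 1.02), and tumor 1 alone overlapped the CD8 1 range. Gzma differed by 2.16 ± 2.08 from CD8 2 and was called there, whereas Nkg7 differed by 0.13 and −0.37. Cd69, a residency and early activation marker that type I interferon can also induce, was higher than in CD8 2 (1.73 ± 0.41) and differed by 0.96 ± 0.45 from CD8 1. Of 5 cell cycle genes compared, Ccnd2, a cyclin of the G1 phase, was higher than in CD8 2 (1.31) and none was called against CD8 1. Of 9 GC response genes, Il1r2 and Per1 were lower than in CD8 2, and Nr3c1, the GC receptor, differed by −0.36 ± 0.65 and −0.34 ± 0.66. Among 8 natural killer receptor genes, Klri2 was lower than in CD8 2, and among 9 residency genes, Cd69 and Cdh1 were higher than in CD8 2 and Rgs2 lower.

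**Figure D3:**
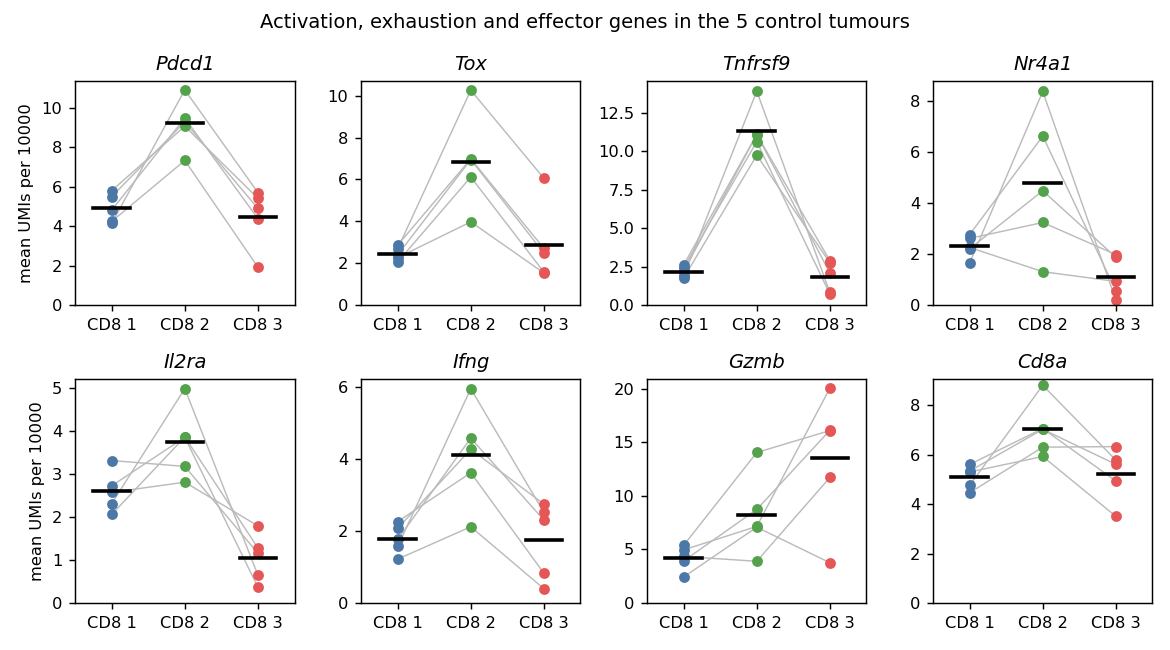
Mean UMIs per 10000 (y axis) in CD8 1, CD8 2 and CD8 3, with a panel per gene, 1 point per control tumor, gray lines joining the same tumor and black bars at the means. Pdcd1 and Tnfrsf9 in CD8 3 lay below all CD8 2 tumors, Il2ra lay below both clusters, and Cd8a overlapped both.

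The ISG level held cell by cell and was not the work of a few cells. Cells were assigned to clusters from these same expression values, so the separation between clusters is a description and carries no test. Single CD8 3 cells of control tumors had 178 to 1157 ISG UMIs per 10000, with a median of 338. The medians were 94.2 in CD8 1 and 86.7 in CD8 2, and their highest cells reached 321 and 332. Thus 0 of 517 CD8 1 cells and 0 of 269 CD8 2 cells reached the CD8 3 median. The edges met: 28 CD8 1 cells and 12 CD8 2 cells had at least the lowest CD8 3 value, and 13 and 8 had at least the 10th percentile of CD8 3 (217). After thinning each cell to 2000 UMIs, which left out 1 shallower CD8 3 cell, 18 CD8 1 cells and 4 CD8 2 cells, CD8 3 cells had a median of 39 listed ISGs, against 13 and 12. Without thinning the medians were 66, 27 and 30. Ifit1 was then detected in 60.2% of CD8 3 cells (86.2% unthinned), 4.81% of CD8 1 cells (9.67%) and 1.89% of CD8 2 cells (8.18%). Rnf213 was detected in 87.1% of thinned CD8 3 cells, 20.2% of CD8 1 cells and 14.0% of CD8 2 cells.

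**Figure D4:**
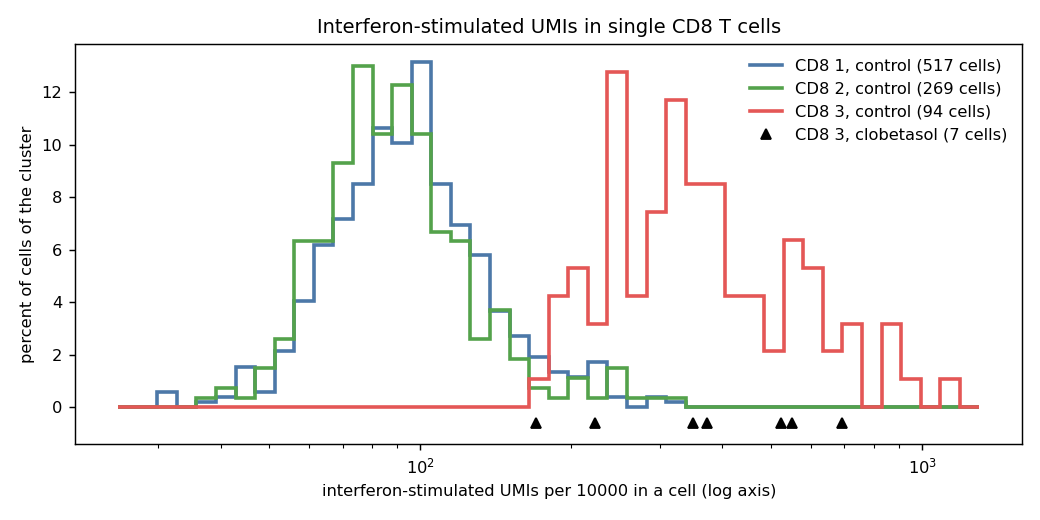
ISG UMIs per 10000 in single cells (x axis, log scale) against the percentage of the control cells of CD8 1, CD8 2 and CD8 3, with the 7 GC cells of CD8 3 marked below the axis line at 0. The control CD8 3 cells began at 178, and the CD8 1 and CD8 2 cells ended at 321 and 332.

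Although few, CD8 3 cells held a large part of the ISG transcripts of the CD8+ T cells. They were 10.7% of control cells in the 3 clusters and 10.6% of their UMIs, but 31.8% of the ISG UMIs (25295 of 79434). For Ifit1 the share was 80.2% (445 of 555 UMIs), for Cmpk2, the neighbor of Rsad2, 85.8%, for Usp18 78.9% and for Isg15 70.7%. Of 108 listed ISGs with at least 20 UMIs in the 3 clusters, CD8 3 included, 27 had over 50% of them in CD8 3. The median share was 39.3%. Cd8a (10.3%) lay near the share of cells, and Gzmb (19.7%) and Pdcd1 (7.60%) lay above and below it.

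Across all 16 clusters of the control tumors, CD8 3 had the highest mean of the summed ISG level, at 426 ± 65.9 (SD, n = 5). As the clusters come from these same expression values, the order is a description. Monocytes 1, a monocyte cluster, followed at 320 ± 55.1 in the 4 tumors with at least 5 of its cells, and the ranges of 354 to 505 and 265 to 378 overlapped. In tumor 3, which held most CD8 3 cells, the order was reversed, at 378 in monocytes 1 and 366 in CD8 3. CD8 3 was higher in tumors 1, 2 and 4. Monocytes 2 (198 ± 10.7) and Tregs (167 ± 9.47) came next, with 134 ± 38.8 in neutrophils, 114 ± 11.9 in tumor-associated macrophages and 91.1 ± 13.2 in eosinophils. CD8 1 (99.97 ± 6.60) and CD8 2 (96.2 ± 11.3) were in the lower part of the order, and differed from each other by less than their SDs. Single genes had different orders. Ifit1 was highest in CD8 3 (7.78 ± 2.12), ahead of monocytes 1 (2.64 ± 1.02) and Tregs (1.40 ± 0.828). Rsad2 and Isg15 were higher in monocytes 1 (7.78 and 5.67) and neutrophils (5.34 and 5.28) than in CD8 3 (4.02 and 4.75).

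**Figure D5:**
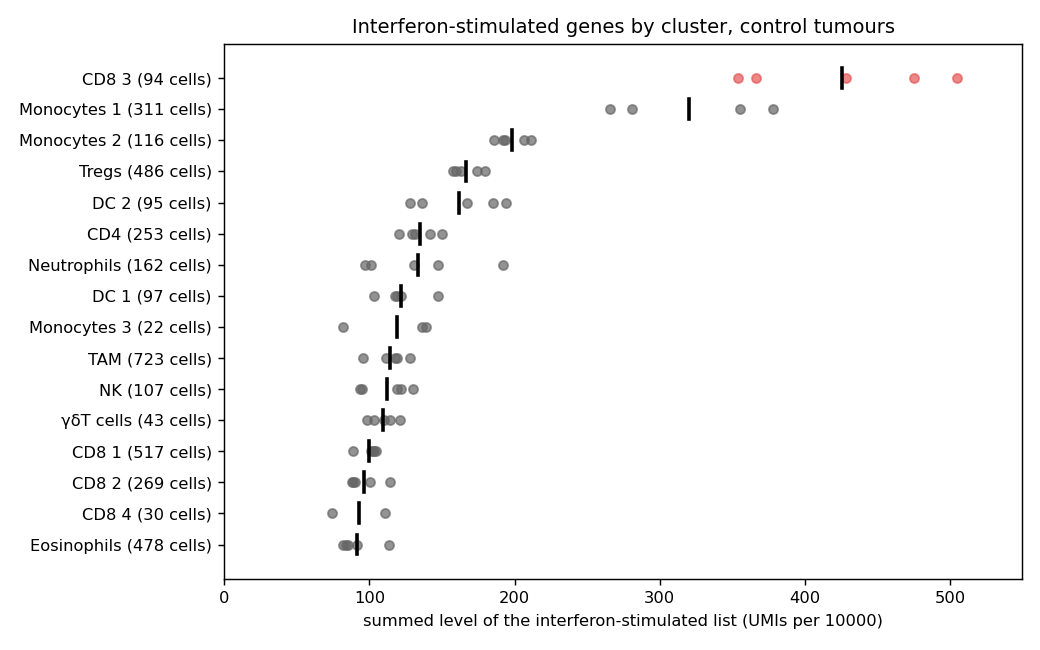
Summed level of the ISG list in UMIs per 10000 (x axis) for each cluster of control tumors (y axis), with 1 point per tumor holding at least 5 cells of the cluster and the mean marked. CD8 3 stood at 426, monocytes 1 at 320, and CD8 1 and CD8 2 at 99.97 and 96.2.

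The amount of hashtag antibody, measured in a separate library that played no part in the clustering, was compared as an independent readout. Median hashtag UMIs per CD8 3 cell were 341, 428, 618, 413 and 387 in the 5 control tumors. They were 303, 433, 571.5, 403 and 354 in CD8 1 and 355, 489.5, 676.5, 502 and 451 in CD8 2. CD8 3 was higher than CD8 1 in 4 of 5 tumors, with a log2 difference of 0.09 ± 0.08, and lower than CD8 2 in 5 of 5, with −0.18 ± 0.09. The exact paired permutation test (two-sided) gave p = 0.125 and p = 0.0625, both 0.125 after Benjamini-Hochberg adjustment over the 2 comparisons, and 5 tumors cannot give a p below 0.0625. Relative to the RNA UMIs of each cell, the differences were −0.067 and 0.074, the opposite signs.

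The 7 GC cells named CD8 3 also had a high ISG level. They were placed in CD8 3 by clustering on these same expression values. Their ISG level therefore describes the members and cannot show whether the state persisted after GC. The 7 cells were pooled as 1 value, since no tumor held more than 4, and their comparison with control has no replicate check. UMIs of the listed ISGs were 427 per 10000 (exact Poisson 95% interval 411 to 443, counting error only), beside 388 (383 to 393) in pooled control CD8 3 cells. Pooled over all 5 GC tumors, CD8 1 cells had 80.1 (control 101) and CD8 2 cells 72.9 (control 95.5). By cell the 7 values were 692 and 223 in GC tumor 2, 170 in tumor 3, and 350, 372, 524 and 551 in tumor 5. Of the 7, 6 exceeded the 10th percentile of control CD8 3 cells, against 0 of 54 GC-treated CD8 1 cells and 0 of 46 CD8 2 cells. The cell with 692 had no Cd8a, Cd8b1 or CD3 subunit UMI among 6414 and no macrophage or neutrophil marker UMI, and without it the pooled value was 397. Leaving out each contributing GC tumor gave 333 to 473.

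Single genes in the pooled GC cells differed in both directions. Ifit1 was at 9.26 (7.05 to 11.9), beside 6.83 (6.21 to 7.50) in control. Its UMIs by cell were 4 and 2 in GC tumor 2, 2 in tumor 3, and 1, 20, 19 and 11 in tumor 5. The pooled Ifit1 value therefore rests mostly on tumor 5. Pdcd1 was at 18.0 (14.9 to 21.7) beside 4.56 (4.06 to 5.11), and it was likewise above control in CD8 1 (12.4 and 5.01) and CD8 2 (14.7 and 9.05). Gzmb was at 2.82 (1.67 to 4.46) beside 15.6 (14.7 to 16.6). Tox was at 12.4 (9.81 to 15.4) beside 2.59, with 2.24 beside 2.28 in CD8 1 and 8.64 beside 6.04 in CD8 2. Tsc22d3, the GC-induced leucine zipper gene, was at 3.29 (2.04 to 5.04) beside 1.47 (1.19 to 1.80). The UMIs of Tsc22d3 by cell were 1 and 1 in GC tumor 2, 9 in tumor 3, and 0, 8, 1 and 1 in tumor 5. Its pooled value therefore rests mostly on the cells with 9 and 8. Fkbp5, another gene induced by the GC receptor, was at 1.88 beside 0.430. These 7 cells come from 3 tumors and cells of 1 tumor are not replicates.

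To see what the CD8 3 cells contributed to a comparison of treatments in CD8+ T cells, limma was fitted with and without them. Both fits used the 5 control tumors and GC tumors 2, 3 and 5, which had at least 10 cells, and took log2(mean UMIs per 10000 + 0.1) of CD8 1, CD8 2 and CD8 3 cells together or of CD8 1 and CD8 2 alone. With CD8 3 cells, 140 of 6158 genes were higher after GC (2.27%) and 169 lower (2.74%), at a limma Benjamini-Hochberg adjusted p under 0.05. Of 89 listed ISGs, 4 were lower, Ifi213, Irf8, Plac8 and Trim34a, and 0 were higher. At an unadjusted p under 0.05, 1344 genes of all kinds passed. Without CD8 3 cells, 126 of 6173 genes were higher (2.04%) and 149 lower (2.41%). Of the 75 listed ISGs that still passed the level filter, 7 were lower, Ddx60, Ifi213, Irf8, Irf9, Sp100, Trim12c and Trim34a, and 0 were higher. By edgeR 10 were lower and by DESeq2 7, and both tools called 0 higher. In both fits 241 genes were called, which is 77.99% of the calls with CD8 3 cells and 87.6% of those without.

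The ISG estimates moved when CD8 3 cells were left out. CD8 3 was drawn from the same expression values and held the highest ISG levels, so its removal lowers the ISG means by construction. How far each tumor moves depends on its share of CD8 3 cells. The p values without CD8 3 cells apply to the remaining cells only. For the 75 ISGs in both fits the median log2 change was −0.25 with CD8 3 cells and −0.41 without, beside medians of all genes of −0.09 and −0.08, and 50 of the 75 were more negative without them. Ddx60 changed by −0.43 ± 0.33 (SE) with CD8 3 cells (limma adjusted p = 0.477) and by −1.64 ± 0.42 without (adjusted p = 0.0498). Ifit1, Isg15 and Usp18 could be compared only with the CD8 3 cells included, since without them their levels lay under the filter, and their adjusted p values were 0.639, 0.666 and 0.698. Ifit1 in the combined cells was 0.689, 0.823, 1.10, 1.17 and 0.482 in control tumors and 0.779, 0.240 and 1.17 in GC tumors 2, 3 and 5, so the groups overlapped. The difference between the fits was not itself tested, and single tumors decided much of it. Leaving out any control tumor left 1 listed ISG lower with CD8 3 cells and 3 without, and leaving out GC tumor 2 gave 14 and 13. Without GC tumor 3, which held 1 CD8 3 cell, the ISG median was 0.00438 with CD8 3 cells and −0.42 without, and 1 ISG was called higher in the first of these fits. The p values measure the spread between tumors within a channel and hold no measure of the difference between channels. That spread includes counting error, since GC tumor 2 gave 12 cells (10 without CD8 3), beside 84 to 385 in control tumors. Depth also differed, with median UMIs per cell of 9184.5 after GC and 6342 in control for CD8 1, and 10204 and 7889 for CD8 2.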

How the data were processed

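Single cell 3' RNA and hashtag libraries were made from 2 channels, 1 per treatment. The authors aligned and counted UMIs with Cell Ranger 7.1.0 on mm10, introns included, assigned hashtags and kept singlets, removed outlier cells by depth, genes and mitochondrial share, integrated the channels and clustered with Seurat 5.0.3 in R 4.3.1. The table they deposited holds natural log values, ln(1 + UMIs per 10000). The authors also deposited per cell metadata with cluster, hashtag and total UMI counts and a mitochondrial percent. No further doublet caller was run.

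UMIs were recovered as whole counts from the deposited values for 32285 genes and 4108 cells, and 100% of 10330441 nonzero values were whole within 0.01. No barcode was shared by the channels (0). Cells were grouped by the tumor hashtag, and tumor numbers are only names. Mean UMIs per 10000 per tumor and cluster were compared with a pseudocount of 0.1 over genes with a mean of at least 0.2, as a description. Treatment was fitted with limma 3.58.1 (trended, robust) per tumor, with edgeR 4.0.16 and DESeq2 1.42.0 on UMI sums as alternatives, and tests were tried on simulated data first. Animals, not cells, were the replicates. CD8 3 total UMIs were 651481 in control and 63741 in GC cells.

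The members and gene lists were chosen with earlier results of these data known. Named genes were the 20 highest and 10 lowest against both clusters by the nearer difference, the listed genes with the highest levels or a call, the 3 markers Cd8a, Cd8b1 and Cd3e, and the members of counts of 5 or fewer. The values of 1 gene of the ISG list are not reported here. Other genes named (Phf11a, Pnpt1, Daxx, Parp11, Ifi47, Cd274, Casp8) were chosen after their values were seen. Promoters were those of RefSeq and coordinates those of GENCODE, both on GRCm38.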

Additional observations from a re-analysis of the deposited data

Results flagged for a closer look

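Among 34 groups of 5 control tumors examined, 2 held a tumor standing apart from the other 4 by Dixon's criterion, where chance gives about 1 in 20. The summed ISG level of CD8 1 was 88.3 in tumor 5 and 101 to 104 in the others (gap over range 0.807). Tox in CD8 3 was 6.05 in tumor 2 and 1.54 to 2.71 in the others (0.740).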

How the results depend on the processing

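The number of ISGs higher than both clusters was 82 and lay between 63 and 84 under most settings, but was 50 on the natural log values, 57 with a pseudocount of 1 and 49 among genes with a mean of at least 1, a filter added after seeing the data, which compares fewer genes. Counts of lower genes depended far more on the setting. In the order higher and lower than CD8 1, than CD8 2 and than both, a pseudocount of 1 gave 82 and 1, 94 and 58, and 72 and 1. The natural log values gave 72 and 0, 85 and 24, and 65 and 0. The filter at 1 gave 91 and 20, 115 and 100, and 85 and 13. Lower than CD8 1, CD8 2 and both were 53, 168 and 21 at a minimum mean of 0.5. Lower than CD8 1 and both were 252 and 78 without a filter, 238 and 107 in tumors with at least 10 CD8 3 cells, 246 and 85 in cells without UMIs of other cell types, and 403 and 140 after thinning. Thinning moved the median of all genes from −0.23 to −0.49 against CD8 1. The causes were not tested. With 1 tumor left out, the higher counts were 159 to 180, 212 to 234 and 147 to 162, and the lower counts 201 to 292, 322 to 403 and 86 to 144, the highest lower counts all without tumor 3. The ISG count was then 82 to 84. Of 952 single-gene values, 879 moved by less than 1 SD and 73 moved further. Among the values called in the main setting 0 changed sign, and changes of sign in uncalled values were not counted.

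The control share was 7.84% to 10.4% with 1 tumor left out and 2.15% of all CD45+ cells. The GC share was 3.10% to 7.26%. Pooled GC ISG UMIs were 397 without the cell lacking Cd8 UMIs and 333 to 473 with 1 tumor left out. Hashtag differences relative to RNA UMIs were −0.067 and 0.074. Without the tumor pairing (no replicate block) they stayed 0.09 and −0.18 (adjusted exact permutation p = 0.683 for both), and with 1 tumor left out they were 0.07 to 0.11 and −0.21 to −0.15.

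For GC against control, genes higher with and without CD8 3 cells were 240 and 230 by edgeR and 251 and 224 by DESeq2. Without a filter, 82 were higher and 85 lower with CD8 3 cells, 78 lower without them, and 2 and 4 ISGs were lower. Leaving out single tumors gave, with CD8 3 cells, 78 to 266 higher, 57 to 342 lower, 1 to 14 ISGs lower and 0 to 1 higher, and without them 87 to 251, 61 to 355 and 3 to 13. Each control tumor left out lowered the counts of all genes higher or lower, and each GC tumor left out raised them. Depth limits the low genes, since 6 to 57 CD8 3 cells stood behind each tumor.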
